A study of Mus musculus with 8 samples.

Results

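Expression of the Fc gamma receptors and of the genes that carry their signal was examined in BNP-injected cheek skin of mice that lack TBX20 in keratinocytes. The genes were chosen by symbol: the activating receptors Fcgr1, Fcgr3 and Fcgr4, the inhibitory receptors Fcgr2b and Pirb, the adaptors Fcer1g and Tyrobp, and the kinase Syk. They were chosen with earlier results of these data known, as were the gene lists used below. Counts among them therefore describe these data and are not independent support. All 8 were found among the 18901 genes of the deposited table, and all 8 passed the filter of at least 10 counts over the mice. Whole cheek skin was sequenced from 4 female TBX20fl/fl;K14-Cre mice and 4 female TBX20fl/fl littermates, called controls, all 7 weeks old and on C57BL/6 backgrounds. In TBX20fl/fl;K14-Cre mice, called knockout mice from here on, the keratin 14 promoter drives Cre in keratinocytes, where it removes exons 2 and 3 of Tbx20; the floxed alleles themselves were carried by both groups. Each mouse had received 10 µg of BNP, a natriuretic peptide that evokes scratching, in the cheek, was recorded for 30 min and was killed 5 h later. Skin without BNP was not analysed here, so each comparison is between genotypes after BNP. Mice are numbered within each group as in the sample titles.

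Fc gamma receptors bind the constant part of IgG on the surface of myeloid cells, mast cells and other leukocytes. The activating receptors have no kinase of their own: Fc receptor gamma chain, the product of Fcer1g, holds them at the surface and carries an immunoreceptor tyrosine-based activation motif (ITAM). Src family kinases phosphorylate the tyrosine pair of the motif, and SYK then docks there. DAP12, the product of Tyrobp, does the same for another set of myeloid receptors. FCGR2B and PIRB carry inhibitory motifs (ITIMs) that recruit phosphatases and oppose this signal, and FCGR2B shares its IgG ligands and many of its cells with the activating receptors. In skin these receptors are known from neutrophils, monocytes, macrophages, dendritic cells and mast cells, whereas SYK is made in a wider range of cells.

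The deposited counts totalled 16056282 to 19880654 per mouse. One library, that of control mouse 2, was unlike the rest. Its genes correlated with those of the remaining mice at a median Spearman rho of 0.919, where every other mouse reached 0.974 to 0.990, its TMM scaling factor was 0.735 against 1.01 to 1.07, and the longer a transcript, the lower it read in this mouse (rho = -0.78 across genes, which are not independent). A trend with transcript length was not particular to this mouse: rho was -0.55 in control mouse 3, 0.47 and 0.45 in knockout mice 3 and 4, and between -0.056 and 0.28 in the remaining mice. Results are therefore also given without that mouse and with the trend with transcript length removed from every mouse. Tbx20 had 0 to 3 counts in each mouse, so the deletion could not be checked at this depth.

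In FPKM, which is scaled per transcript length, the adaptors were the most abundant of the 8 in every mouse. The trend with transcript length within each mouse limits comparison between genes of unlike length. Tyrobp averaged 240.4 ± 83.6 (SD, n = 4) in controls and 141.7 ± 26.3 (SD, n = 4) in knockout mice. Next came Fcer1g, Fcgr2b and Fcgr3, in that order in 8 of 8 mice. Pirb and Fcgr1 followed at a lower level, and their order held in 7 of 8 mice, so their levels were not separated beyond the spread. Fcgr4 and Syk were lowest and exchanged places between the genotypes: Fcgr4 was above Syk in 4 of 4 controls and below it in 4 of 4 knockout mice. Their transcripts differ widely in length, 1201 and 5172 bases, and the part of the length trend in this exchange was not tested.

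**Figure D1:**
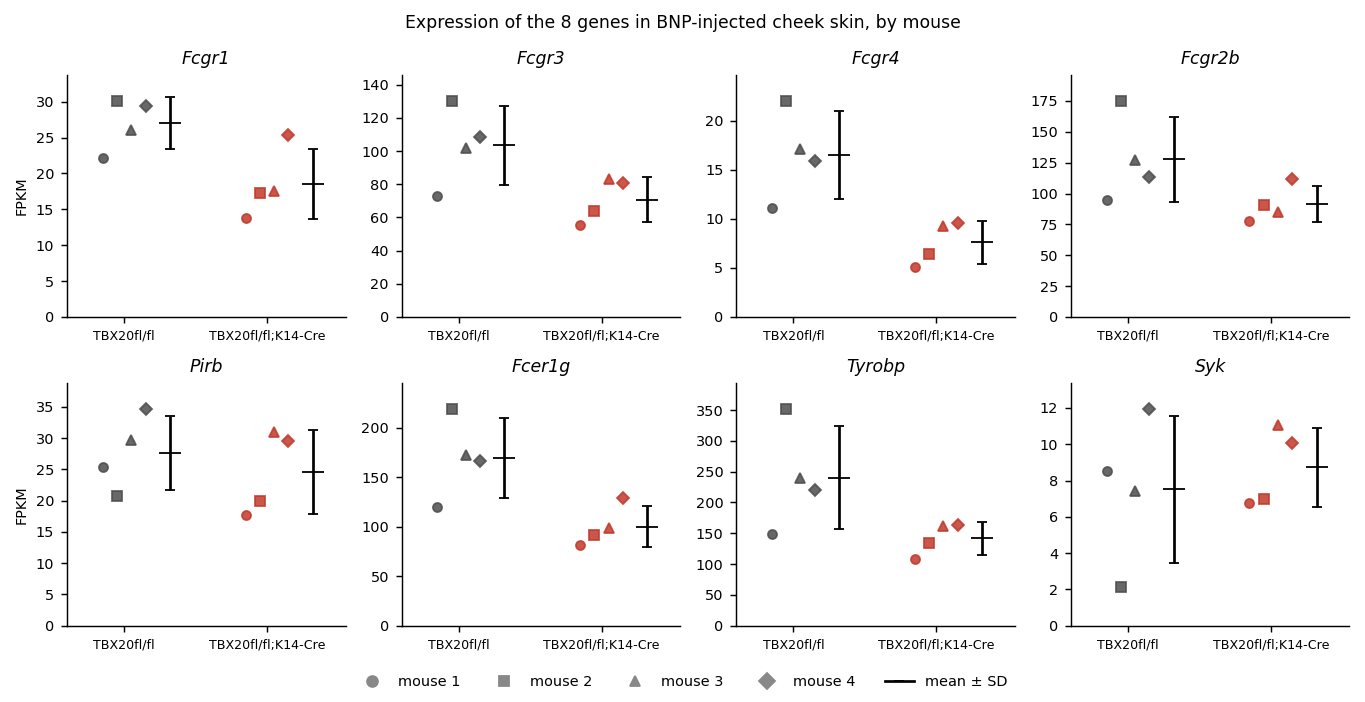
FPKM of the 8 genes (vertical axes, linear, from 0) in each of 4 control (TBX20fl/fl) and 4 knockout (TBX20fl/fl;K14-Cre) mice; each symbol is 1 mouse, marked by its number, and bars give the mean ± SD. In the Fcgr4 panel the highest knockout mouse, at 9.59, lies below the lowest control, at 11.1; control mouse 2 is the highest mouse for 6 genes, but is low for Pirb, at 20.7, and the lowest of all for Syk, at 2.14.

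Fcgr4 encodes an activating receptor for IgG2a and IgG2b that is made by neutrophils, monocytes and macrophages. It lies on chromosome 1 of GRCm38 from 171018926 to 171029761 on the plus strand, between Fcgr2b and Fcgr3. In controls 1 to 4 its FPKM was 11.1, 22.1, 17.1 and 15.9, and in knockout mice 1 to 4 it was 5.06, 6.45, 9.31 and 9.59. The 4 knockout mice all lay below the 4 controls, and Fcgr4 was the one gene of the 8 for which this held, in FPKM and in CPM, the TMM-scaled counts. Over the 17124 genes tested, 1.87% had all knockout mice below all controls in FPKM, and 3.27% had this in CPM. The mean was 7.60 ± 2.21 (SD, n = 4) against 16.6 ± 4.51 (SD, n = 4), 54.1% lower (p = 0.0286 by a two-sided exact permutation test, which cannot give a smaller p with 4 mice a group). These values rested on 117 to 229 counts per knockout mouse and 262 to 426 per control. The log2 fold change from counts was -1.35 ± 0.330 (SE), with an unadjusted p of 0.00255 and a Benjamini-Hochberg adjusted p of 0.498 in the quasi-likelihood test of edgeR, so it did not pass the threshold of 0.05 over all genes. It ranked 28th of 17124 genes by p. Its 95% interval ran from -2.09 to -0.60. Without control mouse 2 the log2 fold change was -1.0, with the length trend removed it was -0.91, and with both it was -0.86. In skin as a whole, fewer cells of a type and less RNA per cell cannot be told apart, here and for each gene that follows.

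The promoters of the 3 neighbouring receptor genes are shown because these genes share a cluster and their ratios are compared further on. Each sequence runs from 250 bases before the transcript start to 50 bases after it, was taken from RefSeq on build GRCm38.p6, and is written 5′ to 3′ on the strand of its gene. Capitals mark GAGGAA, the core of the site of the myeloid factor PU.1, searched on both strands, so that TTCCTC marks the same site on the other strand.
Fcgr4, chr1:171018676-171018975, plus strand: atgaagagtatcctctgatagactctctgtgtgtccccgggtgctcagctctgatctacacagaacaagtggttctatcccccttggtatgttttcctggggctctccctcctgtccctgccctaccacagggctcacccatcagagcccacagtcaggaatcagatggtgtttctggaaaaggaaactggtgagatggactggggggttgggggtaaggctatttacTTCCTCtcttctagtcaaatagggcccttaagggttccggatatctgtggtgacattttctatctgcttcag
Fcgr3, chr1:171059345-171059644, minus strand: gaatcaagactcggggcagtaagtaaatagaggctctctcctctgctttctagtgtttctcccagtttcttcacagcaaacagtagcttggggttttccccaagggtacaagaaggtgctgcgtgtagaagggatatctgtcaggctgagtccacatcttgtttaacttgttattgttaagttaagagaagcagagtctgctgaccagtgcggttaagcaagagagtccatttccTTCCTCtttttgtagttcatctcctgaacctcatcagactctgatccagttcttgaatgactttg
Fcgr2b, chr1:170976022-170976321, minus strand: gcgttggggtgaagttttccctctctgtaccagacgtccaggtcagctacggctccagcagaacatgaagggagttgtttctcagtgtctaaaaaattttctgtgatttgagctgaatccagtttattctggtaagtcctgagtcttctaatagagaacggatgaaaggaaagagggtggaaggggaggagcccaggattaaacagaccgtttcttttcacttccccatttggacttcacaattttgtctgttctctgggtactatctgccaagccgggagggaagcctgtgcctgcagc
In Fcgr4 the match began 22 bases before the start, and in the window of Fcgr3 shown it began 15 bases before the start. No match was found in the Fcgr2b window. Of the 7 members with a promoter in the RefSeq table, 5 had at least 1 match to GAGGAA in a listed window, against 30.8% of the 13319 tested genes that have a listed promoter. Some genes have several windows. The longer form GAGGAAGT was present in Fcgr4 and Pirb, against 3.65% of those genes, and every such match contains a match to the core. A T-box half-site, GGTGTGA, was present in Pirb, against 4.40%. These are matches of letters and not measured binding.

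Fcgr1 encodes the high-affinity IgG receptor of monocytes, macrophages and dendritic cells. It lies on chromosome 3 from 96282909 to 96293969 on the minus strand. Its FPKM was 22.2, 30.2, 26.1 and 29.5 in controls 1 to 4 and 13.7, 17.3, 17.6 and 25.4 in knockout mice 1 to 4. One knockout mouse, number 4, lay above the lowest control, and the other 3 lay below all controls. The mean was 18.5 ± 4.92 (SD, n = 4) against 27.0 ± 3.65 (SD, n = 4; exact permutation test, p = 0.0571). From counts, the log2 fold change was -0.74 ± 0.242 (SE; unadjusted p = 0.0127 and adjusted p = 0.498 in edgeR's test). Fcgr1 was the activating receptor least altered by the length correction, at -0.72, and it was -0.53 without control mouse 2.

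Fcgr3 encodes a low-affinity IgG receptor of neutrophils, macrophages, mast cells and NK cells. It lies on chromosome 1 from 171051169 to 171065915 on the minus strand, 21407 bases from Fcgr4. In controls 1 to 4 the FPKM was 72.7, 130.5, 102 and 109, and in knockout mice 1 to 4 it was 55.1, 64.0, 83.4 and 80.6. The groups overlapped through control mouse 1, which lay below knockout mice 3 and 4. The mean was 70.8 ± 13.5 (SD, n = 4) against 103 ± 23.9 (SD, n = 4; exact permutation test, p = 0.0857). From counts the log2 fold change was -0.76 ± 0.273 (SE; unadjusted p = 0.0202, adjusted p = 0.498 in edgeR's test), -0.46 without control mouse 2 and -0.38 with the length trend removed. Of the 1733 distinct 50-base stretches in its annotated transcripts, 166 (9.58%) also occur in transcripts of Fcgr2b, so single-end reads of 50 bases from that part could come from either gene.

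Fcgr2b encodes the inhibitory Fc gamma receptor, known from B cells, macrophages, dendritic cells and mast cells. The deposited table lists it on chromosome 1 from 170960558 to 170977746 on the plus strand, whereas the GENCODE annotation places the gene on the minus strand. An antisense gene, Gm38204, overlaps its exons by up to 155 bases; whether the counting used strand was not given in the sources used here. The stretch of its coding sequence that matches the ITIM pattern is shown because this motif sets FCGR2B apart from the activating receptors. It was read from the GENCODE M21 transcript, codons 317 to 322 of 340, and capitals mark the 3 codons that define the pattern, with the tyrosine codon in the middle.
Fcgr2b: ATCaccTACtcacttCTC
The pattern is loose. It also matched at 3 places in Fcgr1 and 1 in Fcgr4, which are not known to carry ITIMs, and at 1 each in the ITAM adaptors Fcer1g and Tyrobp. The Tyrobp match, at codons 90 to 95, overlaps the ITAM stretch given for it below.
In controls 1 to 4 the FPKM of Fcgr2b was 94.7, 175, 127 and 113, and in knockout mice 1 to 4 it was 78.0, 90.4, 84.8 and 112. Control mouse 2 was far above the others, and knockout mouse 4 overlapped the controls. The mean was 91.2 ± 14.6 (SD, n = 4) against 128 ± 34.5 (SD, n = 4; exact permutation test, p = 0.0571). In log2 terms the change was -0.72 ± 0.290 (SE; unadjusted p = 0.0346, adjusted p = 0.498 in edgeR's test). It was -0.34 without control mouse 2 and -0.34 with the length trend removed.

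Pirb encodes paired immunoglobulin-like receptor B, an inhibitory receptor of myeloid cells and B cells that binds MHC class I. It lies on chromosome 7 from 3712505 to 3720382 on the minus strand. Stretches that match the ITIM pattern near the end of its coding sequence, at codons 792 to 797 and 822 to 827 of 841, are marked in the same way. Of the 4 matches in Pirb, those at codons 107 to 112 and 711 to 716 are not shown.
Pirb, first: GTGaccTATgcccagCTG
Pirb, second: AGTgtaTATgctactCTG
Its FPKM was 25.4, 20.7, 29.8 and 34.6 in controls 1 to 4 and 17.7, 20.0, 31.0 and 29.6 in knockout mice 1 to 4. The groups overlapped widely. The mean was 24.6 ± 6.68 (SD, n = 4) against 27.6 ± 5.97 (SD, n = 4; exact permutation test, p = 0.514), and the log2 fold change was -0.32 ± 0.204 (SE; adjusted p = 0.505 in edgeR's test), with a 95% interval from -0.78 to 0.14. It was -0.32 with the length trend removed, and from -0.45 to -0.20 over the fits that left out 1 mouse. Of its 4648 transcript stretches of 50 bases, 34.0% also occur in other genes, most often in relatives of the Pira family such as Gm14548 and Pira2, so its counts are uncertain.

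Fcer1g and Tyrobp encode small proteins that consist largely of a membrane segment and an ITAM tail. The stretch that encodes the ITAM is shown for each because it is the part that SYK binds. Both run 5′ to 3′ in the coding sequence of the GENCODE M21 transcript, and capitals mark the codons of the tyrosine pair and of the leucines 3 codons after each.
Fcer1g, codons 65 to 79 of 86: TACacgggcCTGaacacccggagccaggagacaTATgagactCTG
Tyrobp, codons 92 to 106 of 114: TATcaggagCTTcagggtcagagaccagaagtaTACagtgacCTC
Each stretch has 45 bases, with the tyrosines at the same spacing. No other member matched this pattern, in which the spacing between the motif's arms may be 6 to 12 codons; SYK itself binds ITAMs through its SH2 domains.

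Fcer1g lies on chromosome 1 from 171229572 to 171234349 on the minus strand, 163656 bases beyond Fcgr3. In controls 1 to 4 the FPKM was 120.2, 219, 172 and 167, and in knockout mice 1 to 4 it was 81.4, 91.7, 99.3 and 129. Knockout mouse 4 lay above control mouse 1, and the other 3 lay below all controls. The mean was 100.3 ± 20.3 (SD, n = 4) against 169.6 ± 40.4 (SD, n = 4), 40.9% lower (exact permutation test, p = 0.0571). From counts the log2 fold change was -0.98 ± 0.281 (SE; unadjusted p = 0.00649, adjusted p = 0.498 in edgeR's test). It was -0.66 without control mouse 2, -0.35 with the length trend removed and -0.41 with both.

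Tyrobp lies on chromosome 7 from 30413782 to 30417582 on the plus strand. Its FPKM was 149.5, 351, 240.5 and 220.5 in controls 1 to 4 and 108, 134, 162 and 163 in knockout mice 1 to 4. Control mouse 1 lay below knockout mice 3 and 4, and control mouse 2 was 1.73 times the mean of the other controls, the highest such ratio among the 8 genes. The difference in means, 41.1% lower in knockout mice, had a p of 0.0857 in the exact permutation test. In log2 terms the change was -1.01 ± 0.337 (SE; unadjusted p = 0.0147, adjusted p = 0.498 in edgeR's test), -0.57 without control mouse 2 and -0.28 with the length trend removed. Fcer1g and Tyrobp have the shortest transcripts of the 8 genes (609 and 526 bases, from the ratio of counts to FPKM), and with the length trend removed their log2 fold changes shrank the most.

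Syk encodes the tyrosine kinase that ITAMs recruit. It lies on chromosome 13 from 52582610 to 52648792 on the plus strand and has the longest transcript of the 8, at 5172 bases. Its FPKM was 8.54, 2.14, 7.45 and 11.9 in controls 1 to 4 and 6.78, 6.97, 11.1 and 10.1 in knockout mice 1 to 4. Control mouse 2, with 184 counts, was far below the 731 to 1181 counts of the other controls, and apart from it the groups overlapped throughout. The mean was 8.72 ± 2.17 (SD, n = 4) against 7.52 ± 4.06 (SD, n = 4; exact permutation test, p = 0.686). Counts gave a log2 fold change of 0.13 ± 0.353 (SE; adjusted p = 0.840 in edgeR's test), with a 95% interval from -0.66 to 0.92, and it turned to -0.13 without control mouse 2 and to -0.087 with the length trend removed. No direction can be given for Syk from these mice.

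Together, 7 of the 8 genes had a log2 fold change below 0, as did 47.5% of all genes tested. The median of the 8 was -0.75, against 0.026 over all genes tested. None had an adjusted p under 0.05 in edgeR's test, in which 0% of the 17124 genes were called and 1431 had an unadjusted p under 0.05; DESeq2's Wald test called 10 genes, none of them one of the 8, with Fcgr4 nearest to the threshold at an adjusted p of 0.0687. An unadjusted p under 0.05 with lower counts in knockout mice was reached by 6 of the 8 (Fcgr1, Fcgr3, Fcgr4, Fcgr2b, Fcer1g and Tyrobp) and by 5.91% of all genes tested. Without control mouse 2 the median of the 8 was -0.50 and all 8 were below 0, as were 47.6% of all genes tested. With the length trend removed the median was -0.34 and the log2 fold changes of all 8 were below 0, as were those of 47.6% of all genes tested. In that fit 2 of the 8, Fcgr1 and Fcgr4, had an unadjusted p under 0.05 with lower counts in knockout mice, as did 5.24% of all genes tested. The labels do not pair the mice. When mice with the same number were also treated as pairs (a replicate block), 7 of the 8, all but Syk, reached this with the length trend removed, against 6.46% of all genes tested, and the adjusted p of the 7 was 0.463 in edgeR's test. With the block alone it was 6 of the 8, against 6.54% of all genes tested. In FPKM the knockout mouse was the lower of the pair in 4 of 4 pairs for 6 of the genes, in 3 of 4 for Pirb and in 2 of 4 for Syk. The share of all genes with such pairs was not computed. In FPKM, 1 of the 8 exact permutation tests, that of Fcgr4, gave an unadjusted p under 0.05. The 8 genes are expressed in overlapping sets of cells and are not independent of each other.

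**Figure D2:**
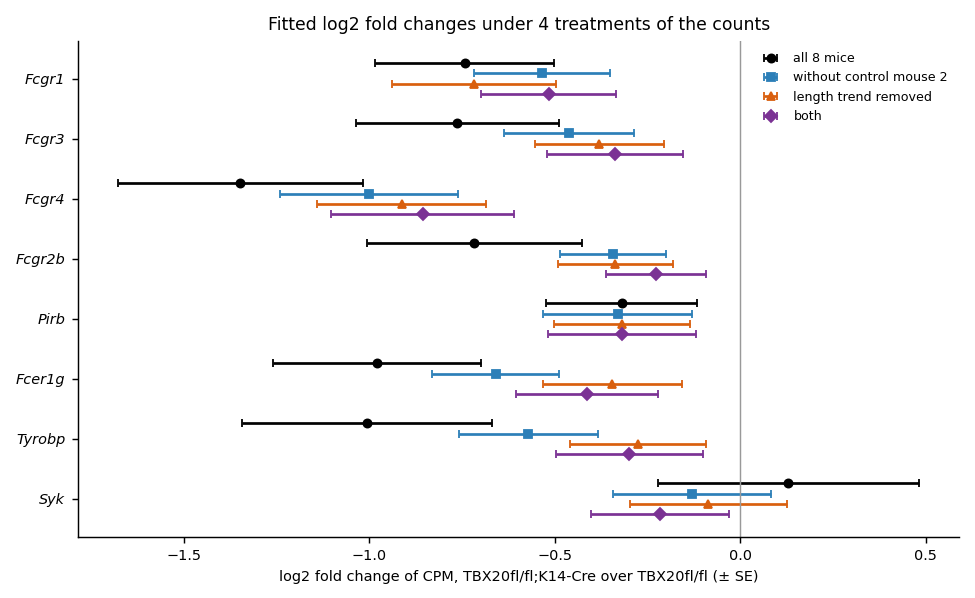
Log2 fold change of CPM (horizontal axis; below 0 is lower in knockout mice) for each of the 8 genes, with the SE as bars, from edgeR's fit on all 8 mice, without control mouse 2, with the length trend removed and with both. Fcgr4 stays lowest in each fit, from -1.35 to -0.86; Fcer1g and Tyrobp move from -0.98 and -1.01 to -0.35 and -0.28 when the length trend is removed; Syk lies on either side of 0.

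Ratios of FPKM within a mouse do not depend on the scaling of its library. Log2 ratios, 16 in all, were compared by two-sided exact permutation tests. The genotypes were separated by Fcgr4 over Fcgr2b, Syk over Fcer1g and Fcgr4 over Ptprc. Fcgr4 alone also separated them, so its ratios are not independent of that result. Fcgr4 over Fcgr2b is given first. For each FPKM of Fcgr2b there was 0.117, 0.126, 0.134 and 0.140 of Fcgr4 in controls 1 to 4, and 0.0648, 0.0714, 0.110 and 0.0858 in knockout mice 1 to 4. All knockout mice were below all controls, and control mouse 2 lay within the range of the other controls. The mean ratio was 0.0830 ± 0.0200 (SD, n = 4) against 0.129 ± 0.00987 (SD, n = 4), a difference of -0.67 on the log2 scale (p = 0.0286 by the exact permutation test, 0.152 when adjusted over the 16 ratios by Benjamini-Hochberg). The difference was -0.62 with the length trend removed (exact permutation p = 0.0286) and -0.68 without control mouse 2 (exact permutation p = 0.0571, the smallest that 4 mice against 3 allow). It was lower in the knockout mouse of all 4 pairs with the same number (exact sign-flip p = 0.125, the smallest that 4 pairs allow). The lengths of these genes, from the ratio of counts to FPKM, were similar, at 1201 and 1371 bases. The annotated Fcgr2b transcript used above for its coding sequence is longer, at 3544 bases, against 1256 for that of Fcgr4.

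The ratios of the other activating receptors to Fcgr2b overlapped between the genotypes. The mean ratio of Fcgr3 to Fcgr2b was 0.780 ± 0.136 (SD, n = 4) against 0.817 ± 0.0972 (SD, n = 4; exact permutation test, p = 0.486). That of Fcgr1 to Fcgr2b was 0.201 ± 0.0220 (SD, n = 4) against 0.218 ± 0.0380 (SD, n = 4; p = 0.486, exact permutation test). With the length trend removed, the log2 difference of Fcgr1 over Fcgr2b was -0.38 and the groups no longer overlapped (exact permutation p = 0.0286). The sum of the 3 activating receptors over Fcgr2b was 1.06 ± 0.163 (SD, n = 4) against 1.16 ± 0.136 (SD, n = 4; exact permutation test, p = 0.314). Fcgr3 makes up most of that sum.

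The ratio of Tyrobp to Fcer1g overlapped between the groups, at 1.42 ± 0.161 (SD, n = 4) in knockout mice and 1.39 ± 0.155 (SD, n = 4) in controls (exact permutation test, p = 0.743). Syk over Fcer1g was higher in all knockout mice than in all controls, with a log2 difference of 1.17 (exact permutation p = 0.0286, adjusted 0.152 over the 16 ratios). These transcripts differ widely in length, control mouse 2 had the lowest ratio at 0.00977 against 0.0432 to 0.0715 in the other controls, and the difference was 0.52 without that mouse (exact permutation p = 0.0571) and 0.31 with the length trend removed (exact permutation p = 0.114). Against Ptprc, the gene of the pan-leukocyte surface protein CD45, Fcgr4 was lower in all knockout mice, at 0.275 ± 0.0314 (SD, n = 4) against 0.641 ± 0.406 (SD, n = 4). The log2 difference was -1.05 (exact permutation p = 0.0286, adjusted 0.152), -0.67 without control mouse 2 and -0.42 with the length trend removed (exact permutation p = 0.0571). The other 7 genes over Ptprc overlapped between the groups, with exact permutation p-values from 0.0857 to 0.571.

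**Figure D3:**
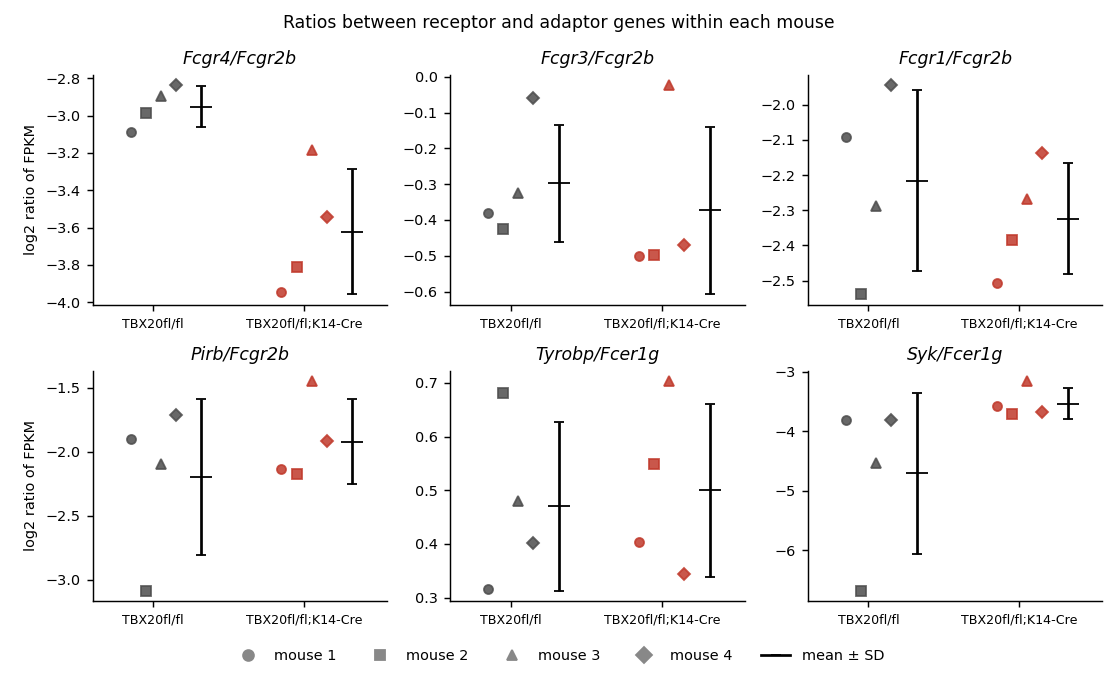
Log2 ratios of FPKM between genes of the set (vertical axes, not starting at a common value) in each mouse, with the mean ± SD as bars. Fcgr4 over Fcgr2b lies between -3.09 and -2.84 in controls and between -3.95 and -3.19 in knockout mice; the other receptor ratios and the adaptor ratio overlap, and control mouse 2 alone draws the Syk over Fcer1g ratio down to -6.68.

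The rest of the pathway was described with a list of 126 other genes, of which 115 were in the table and 112 were tested. This list too was chosen with earlier results of these data known, so its counts are descriptions and not a test. None of the 112 passed in edgeR's test. Of them, 86 had log2 fold changes below 0 and 26 above, with a median of -0.38 against 0.026 over all genes tested. Over all genes tested, 47.5% were below 0, which is the background for each such count by role or marker list that follows. An unadjusted p under 0.05 was reached by 38, all of them lower in knockout mice, where 5.91% of all genes tested did so in that direction; the same share is the background for the counts of each role and each marker list that follow. With the length trend removed the median was -0.32 (0.018 over all genes tested) and 36 had an unadjusted p under 0.05 in that direction, against 5.24% of all genes tested. DESeq2 called 1 of them, Clec4e. With the length trend removed, the medians were -0.72 for receptors that use ITAM adaptors, -0.49 for ITIM receptors, -0.42 for other Fc receptors, -0.24 for ITAM and hemITAM proteins, -0.18 for kinases and -0.12 for phosphatases; differences between roles were not tested.

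Receptors that signal through ITAM adaptors had the lowest median, -0.94, and 20 of 21 were below 0, of which 12 had an unadjusted p under 0.05 in edgeR's test. Clec4e encodes Mincle, a lectin receptor that signals through the Fc receptor gamma chain. Its FPKM was 7.09 ± 2.89 (SD, n = 4) in knockout mice and 18.7 ± 5.36 (SD, n = 4) in controls, with separate ranges of 4.54 to 11.2 and 12.7 to 25.6. Over all genes tested, 1.87% had all knockout mice below all controls in FPKM, the background for each gene without overlap that follows. Most pathway genes named here were picked as the 3 of smallest p in their role, a choice that favours separate ranges. The log2 fold change of Clec4e was -1.63 ± 0.362 (SE; adjusted p = 0.498 in edgeR's test and 0.0255 in DESeq2's), and -1.58 with the length trend removed. Clec4d, the partner of Mincle, was at 13.8 ± 5.53 (SD, n = 4) against 39.4 ± 18.2 (SD, n = 4), a log2 fold change of -1.76 ± 0.450 (SE). Clec5a, a DAP12-coupled receptor, was at 2.23 ± 0.284 (SD, n = 4) against 3.91 ± 0.729 (SD, n = 4), with a log2 fold change of -1.02.

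Among the 12 other Fc receptors the median was -0.49, which became -0.16 without control mouse 2, and 3 had an unadjusted p under 0.05 in edgeR's test, all lower. The subunits of the high-affinity IgE receptor that pair with the Fc receptor gamma chain were among them. Ms4a2, the beta chain, was at 4.24 ± 0.398 FPKM (SD, n = 4) against 6.83 ± 0.730 (SD, n = 4), without overlap, and its log2 fold change was -0.87 ± 0.197 (SE) and -0.88 with the length trend removed. Fcer1a, the alpha chain, was at 3.06 ± 1.03 (SD, n = 4) against 7.46 ± 3.95 (SD, n = 4), a log2 fold change of -1.56 that was -0.89 without control mouse 2. Fcrla, an intracellular Fc receptor-like protein, stayed at or below 0.59 FPKM in every mouse and had a log2 fold change of -1.05. Of the soluble partners, Ptx3, a pentraxin, was at 36.6 ± 21.2 FPKM (SD, n = 4) against 68.4 ± 24.0 (SD, n = 4; log2 fold change -1.11 ± 0.462, SE), and Crp did not exceed 0.18 FPKM.

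The 11 genes listed as other ITAM and hemITAM proteins were all below 0, with a median of -0.75 that became -0.39 without control mouse 2 and -0.24 with the length trend removed. The list includes Hcst, named after its values were seen, whose product DAP10 has no ITAM. Hcst was at -0.96, at -0.46 without control mouse 2 and at -0.16 with the length trend removed. Clec7a, the gene of the beta-glucan receptor Dectin-1 with its single-tyrosine hemITAM, was at 12.9 ± 3.78 (SD, n = 4) against 25.9 ± 8.33 (SD, n = 4), a log2 fold change of -1.24, and -1.09 with the length trend removed. Cd3g, a chain of the T cell receptor complex, went from -0.89 to -0.33 with that correction and to -0.39 without control mouse 2. Clec1b stayed at or below 0.49 FPKM and had a log2 fold change of -1.42. Among the 20 other ITIM receptors, 17 were below 0 and 12 had an unadjusted p under 0.05 in edgeR's test, with a median of -0.66. Lilrb4a, an ITIM receptor of myeloid and mast cells, was at 53.0 ± 14.5 (SD, n = 4) against 100.4 ± 31.3 (SD, n = 4), with separate ranges of 39.3 to 73.6 and 80.9 to 147, and a log2 fold change of -1.17 that was -0.75 without control mouse 2. Its close relative Lilr4b, listed here under the older symbol Gp49a and known to lack the ITIM, was at -1.13, and at -0.74 without that mouse. Clec12a, an inhibitory lectin receptor of myeloid cells, was at -1.11. Lilr4b was at -0.74 and Clec12a at -0.73 with the length trend removed.

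The 12 kinases had a median of -0.070 and 1 had an unadjusted p under 0.05 in edgeR's test, a share near the 5.91% of all genes tested that were lower at this p; with the replicate block it was 2. The Src family kinases with the smallest p included Fgr, at -0.51 ± 0.225 (SE), and Lyn, at -0.37 ± 0.166 (SE). Among 18 adaptors and effectors the median was -0.18 and 4 had an unadjusted p under 0.05. Lat2, a membrane adaptor of mast and myeloid cells, was at 10.6 ± 0.925 FPKM (SD, n = 4) against 14.8 ± 1.49 (SD, n = 4), without overlap, with a log2 fold change of -0.65 ± 0.189 (SE) that was -0.39 with the length trend removed. Skap2, an adaptor of integrin signalling in myeloid cells, was at -0.44, as was Lcp2, the gene of SLP-76; with the length trend removed Skap2 was at -0.19 and Lcp2 at -0.59. Among 16 phosphatases and other negative regulators the median was -0.12 and 2 had an unadjusted p under 0.05, the docking proteins Dok1 and Dok2, each at -0.53; with the length trend removed they were at -0.34 and -0.33, and without control mouse 2 Dok2 was at -0.32. With the replicate block 1 of the phosphatases had an unadjusted p under 0.05. The counts of adaptors and of phosphatases stand beside the same 5.91% of all genes tested. Sla, the gene of an adaptor that lowers receptor levels, was at -0.26.

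**Figure D4:**
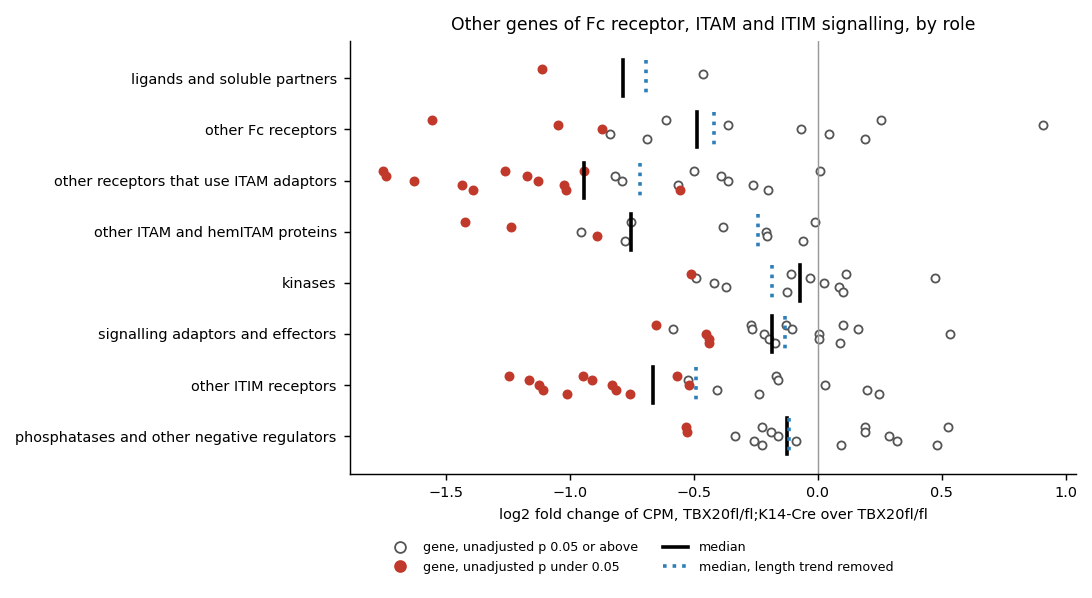
Log2 fold change of CPM (horizontal axis; below 0 is lower in knockout mice) of the 112 other pathway genes tested, each point 1 gene, grouped by role; filled points have an unadjusted p under 0.05 in edgeR's test, solid bars are medians and dotted bars are medians with the length trend removed. The medians of the receptor groups lie between -0.94 and -0.49, and those of kinases, adaptors and phosphatases between -0.18 and -0.070; no gene passed the adjusted threshold in edgeR's test, and DESeq2's test called 1, Clec4e.

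Markers of the leukocytes that carry these receptors had log2 fold changes of different sizes in the same comparison. All 10 neutrophil markers had log2 fold changes below 0, with a median of -1.54 (-1.32 with the length trend removed), and 7 had an unadjusted p under 0.05 in edgeR's test, where 5.91% of all genes tested were lower at this p. Their summed FPKM ranged from 112 to 303 in knockout mice and from 299 to 1017 in controls, and most of it came from S100a9, at 83.1 ± 37.2 (SD, n = 4) against 296 ± 187 (SD, n = 4), and S100a8, which damaged keratinocytes are also known to make. Ly6g, the defining neutrophil marker, stayed low, at 0.163 ± 0.0532 FPKM (SD, n = 4) against 0.472 ± 0.0881 (SD, n = 4). Of 6 monocyte markers 5 were below 0, with a median of -1.13, which became -0.61 without control mouse 2 and -0.84 with the length trend removed, and summed FPKM of 246 to 444 against 286 to 566. Their most abundant genes went in opposite directions, Plac8 at -1.03 (-0.56 without control mouse 2 and -0.34 with the length trend removed) and Fn1, which fibroblasts also make, at 0.69 (0.19 with the length trend removed). Ms4a4c, a monocyte marker named after its values were seen, was the one marker that DESeq2's test called (adjusted p = 0.0141). Its FPKM was 20.3 ± 6.31 (SD, n = 4) in knockout mice and 51.4 ± 16.3 (SD, n = 4) in controls, with separate ranges of 16.1 to 29.5 and 33.1 to 66.1, and its log2 fold change in edgeR's fit was -1.55 ± 0.330 (SE; adjusted p = 0.498), and -1.30 with the length trend removed. For the 11 macrophage markers the median was -0.12, with 7 below 0 and 4 above; with the length trend removed it was 0.028, with 5 below 0, so no direction can be given for this list. Without that correction, 1 on each side had an unadjusted p under 0.05 in edgeR's test, C1qb and, named after its values were seen, Mertk at 0.58 (0.36 with the length trend removed). Over all genes tested, 5.91% were lower and 2.45% higher at this p; with the replicate block 2 markers were higher and 1 lower. The summed FPKM of 612 to 937 lay over the 613 to 946 of controls; C1qb and C1qc, the most abundant, were at -0.59 and -0.41, at -0.15 and 0.028 with the length trend removed, and at -0.38 and -0.24 without control mouse 2. The part of these cells in the results for the receptor genes was not tested.

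Among the other marker lists, medians were -0.35 for pan-leukocyte genes (Cd53 at -1.20, Coro1a at -0.59), -0.40 for dendritic and Langerhans cells (H2-Aa at -0.70, H2-Ab1 at -0.40), -0.56 for mast cells (Cpa3 at -0.92, Mcpt4 at -0.36), -1.46 for basophils (Fcer1a at -1.56, Gata2 at 0.20) and -1.18 for NK cells (Gzma at -1.24, Prf1 at -0.22). The other pan-leukocyte genes ran from -0.47 to 0.0056, and the median of that list was -0.27 with the length trend removed. The dendritic, mast cell, basophil and NK cell medians became -0.11, -0.10, -0.82 and -0.66 with the length trend removed, and -0.22, -0.28, -0.86 and -0.82 without control mouse 2. Named markers of these lists that moved by over 1.5 times without control mouse 2 were Cd53, at -0.71, H2-Aa, at -0.39, H2-Ab1, at -0.22, Cpa3, at -0.47, Mcpt4, at -0.18, Fcer1a, at -0.89, Gata2, at -0.032, and Gzma, at -0.82. Removing the length trend put Coro1a at -0.35, H2-Aa at -0.23, H2-Ab1 at -0.0012, Cpa3 at -0.51, Mcpt4 at 0.077, Fcer1a at -0.97 and Gzma at -0.66. Fcer1a and Ms4a2 belong to the basophil and mast cell lists as well as to the pathway list. T cell genes had a median of -0.30 (Cd3d at -0.75, Cd3e at -0.061), which became -0.17 without control mouse 2 (Cd3d at -0.39, Cd3e at 0.064) and -0.0049 with the length trend removed (Cd3d at -0.24, Cd3e at 0.23). B cell genes were near the limit of detection, with summed FPKM of at most 0.56, and Cd79a was at 0 in at least 1 control. For cells that are not leukocytes, the medians were 0.074 for keratinocyte genes (Krt14 at -0.30, Krt10 at 0.055), 0.031 for skeletal muscle (Acta1 at 0.031, Tnnt3 at -0.54), -0.040 for adipocytes (Fabp4 at -0.41, Adipoq at -0.072), 0.32 for endothelium (Emcn at -0.61, Cdh5 at 0.39) and 0.56 for fibroblasts (Dcn at -0.64, Col1a2 at 0.75). With the length trend removed these medians became 0.15, 0.20, 0.27, 0.13 and 0.20, and without control mouse 2 they were 0.046, 0.075, 0.024, 0.11 and 0.45. For their named markers, without control mouse 2 Tnnt3 was at -0.19, Fabp4 at 0.0087, Adipoq at 0.23, Emcn at -0.17, Cdh5 at 0.16, Dcn at -0.24 and Acta1 at 0.075. The length correction put Krt14 at -0.076, Krt10 at 0.17, Acta1 at 0.29, Tnnt3 at -0.041, Fabp4 at 0.26, Adipoq at 0.35, Emcn at -0.23, Cdh5 at 0.25, Dcn at -0.40 and Col1a2 at 0.40.

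**Figure D5:**
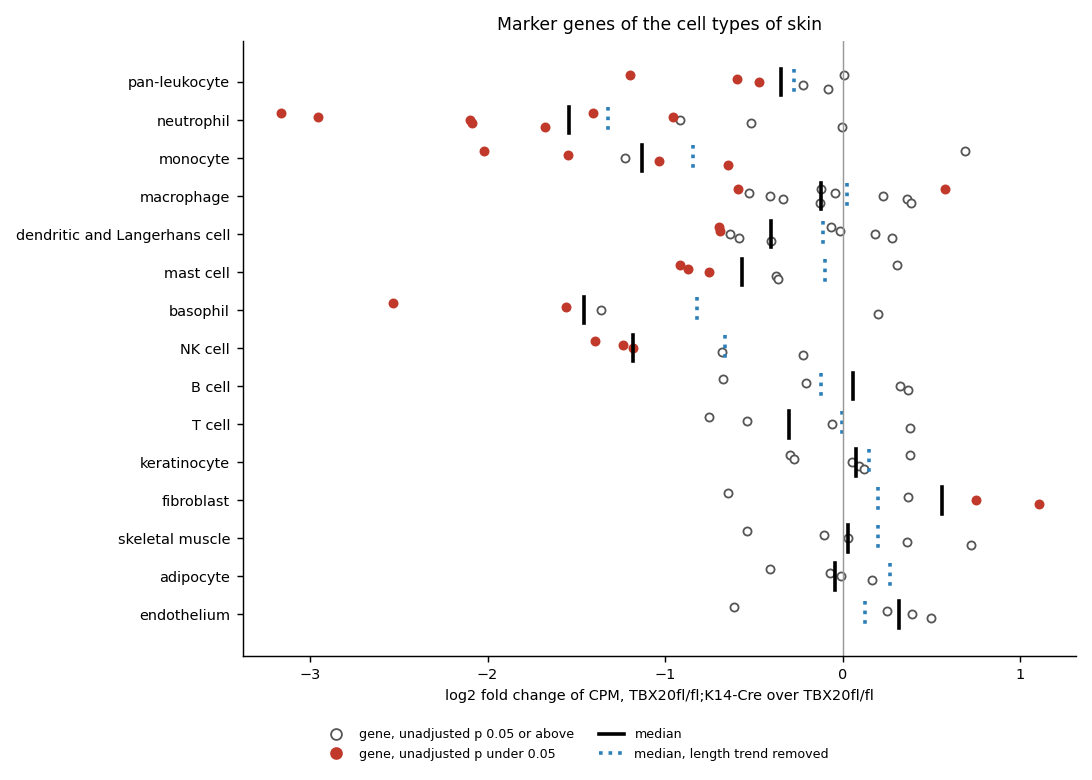
Log2 fold change of CPM (horizontal axis; below 0 is lower in knockout mice) of marker genes of 15 cell types or classes, each point 1 gene; filled points have an unadjusted p under 0.05 in edgeR's test, solid bars are medians and dotted bars are medians with the length trend removed. Neutrophil, basophil, NK cell and monocyte markers have medians from -1.54 to -1.13, macrophage markers have -0.12 (0.028 with the length trend removed), and no gene passed the adjusted threshold in edgeR's test; DESeq2's test called 1 of the markers, Ms4a4c.

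The genes whose log2 CPM followed the mean of the 8 most closely over the 8 mice, among 14401 genes with a mean of at least 1 CPM, included Gpsm3 (Pearson r = 0.987), Alox5ap (0.979), Coro1a (0.979) and Apobec1 (0.978). Alox5ap encodes the protein that presents arachidonic acid to 5-lipoxygenase in leukotriene synthesis, and Coro1a a leukocyte actin-binding protein. Alox5ap was at 44.3 ± 8.99 FPKM (SD, n = 4) in knockout mice and 61.9 ± 13.1 (SD, n = 4) in controls. These correlations are descriptions over 8 mice that share the trend with transcript length and the difference between the genotypes.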

How the data were processed

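Whole cheek skin taken after BNP injection was sequenced by the authors in 4 knockout (TBX20fl/fl;K14-Cre) and 4 control (TBX20fl/fl) mice, with single-end reads of 50 bases. According to their methods, SOAPnuke removed poor reads and HISAT aligned the rest. The authors deposited estimated counts (expected counts) per gene, not normalized, from a counting program not given in the sources used here; 69.0% of those above 0 are not whole. The authors also deposited FPKM values, made with the Dr. Tom platform. Their TPM values, size-factor-scaled counts, group means and comparison columns (fold changes, p-values) were not used.

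Counts were rounded, filtered at 10 over the mice (17124 genes), scaled by TMM and compared with edgeR 4.0.16 (quasi-likelihood test, R 4.3.3) with Benjamini-Hochberg adjustment over all genes and a threshold of 0.05. SEs are the log2 fold change over the square root of F. FPKM and log2 FPKM ratios were compared by two-sided exact permutation tests over 70 assignments of the mice. Alternatives used DESeq2 1.42.0, limma 3.58.1 on log2(FPKM + 1), other filters and scaling, each mouse left out, a replicate block, and removal of a lowess trend (span 0.4) of each mouse's log2 counts with transcript length, as an offset; lengths came from counts and FPKM. Leaving out control mouse 2 together with the length trend, and length-corrected ratios, were chosen after seeing the data. Scripts were tested on simulated data. Totals of 16056282 to 19880654 counts put 3 counts at 0.151 to 0.187 CPM, which covers counting error only.

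Deviations from the group means correlated in every pair of mice with the same number (r = 0.108 to 0.323 across genes). Pairing by number was therefore used as an alternative, not in the main fit. It was read from these same data and was not checked by other means. Pairs with different numbers ranged from -0.41 to 0.32 (mean -0.067), and 3 of 4 mice in each group correlated best with their own number; the labels name no shared litter or day.

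The members and gene lists were chosen with earlier results of these data known. Named genes are the 8 members, the 3 genes of smallest p in each pathway role, the 2 most abundant of each marker list, the 5 closest in pattern to the mean of the members, and Ptprc; Ly6g was named after its values were seen, as were genes named for shared sequence or position. A few items that these rules select are not reported here. ITAM and ITIM stretches were found by pattern in GENCODE M21 transcripts, promoters came from RefSeq (GRCm38.p6), and 50-base stretches were compared with all GENCODE M21 transcripts.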

Additional observations from a re-analysis of the deposited data

Results flagged for a closer look

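Of 48 groups of 4 values examined (the 8 genes in FPKM and 16 ratios, in each genotype), 2 held a mouse that stood apart from the other 3 by Dixon's test at the 95% level; chance gives about 1 in 20, or 2.4 here. The log2 ratio of Fcgr3 to Fcgr2b was -0.023 in TBX20fl/fl;K14-Cre mouse 3, against -0.50 to -0.47 in the other 3. These genes share 9.58% of the 50-base stretches of Fcgr3. The log2 ratio of Fcgr2b to Ptprc was 3.30 in control mouse 2, against 1.60 to 1.83 in the other controls; in this mouse counts fell most steeply with transcript length (rho = -0.78 across genes).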

How the results depend on the processing

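None of the 8 genes passed the adjusted threshold in any of the 19 alternative fits, and 7 of them kept their direction throughout; DESeq2 called 10 genes in all and 1 of the other pathway genes, Clec4e, where edgeR called 0. Syk reversed: its log2 fold change was -0.087 with the length trend removed, -0.071 with the length trend removed and the replicate block, -0.22 with the length trend removed without control mouse 2, and -0.13 to 0.40 over the fits that left out 1 mouse. Fcgr4 ranged from -1.53 to -1.0 over the latter, the smallest without control mouse 2. With the replicate block, edgeR called 0 genes, Fcgr4 was at -1.29 (adjusted p = 0.405 in edgeR's test), and no gene crossed the adjusted threshold with the block; the unadjusted counts that the block moved by over 1.5 times were those of the 8 genes with the length trend removed (7 in place of 2), kinases (2 in place of 1), phosphatases (1 in place of 2) and higher macrophage markers (2 in place of 1), among the counts printed for the 8 genes, the roles and the marker lists; for ratios the sign-flip test over 4 pairs cannot go below 0.125. limma's fit on log2(FPKM + 1) moved the median of all genes to 0.12 and that of the other pathway genes to -0.094 (-0.21 relative to all genes; -0.084 and -0.14 without a filter), and Fcgr4 was at -1.15 relative to all genes. With the length trend removed, log2 ratio differences that had not passed reversed for Fcer1g over the activating receptors (0.13), Pirb over Fcgr2b (-0.012) and, over Ptprc, for Fcgr3 (0.14), Fcgr2b (0.20), Pirb (0.19), Fcer1g (0.16) and Tyrobp (0.23). Why these values moved was not tested. With 4 mice a group, adjusted p-values of the 8 genes ran from 0.0687 to 0.996 over the alternatives; Fcgr4, with 117 to 426 counts per mouse, and Syk in control mouse 2, with 184, had the least depth.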
